A study of Mus musculus with 10 samples.

Results

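The counts of 9 T cell genes were examined in RNA sequencing of pancreas tail pieces from female mice aged 12 weeks. The genes were Cd3e, Cd3d, Cd3g, Cd4, Cd8a, Cd2, Cd5, Lck and Zap70, taken by symbol from a table of 24421 genes, and all 9 were found. Each of the 10 libraries came from 1 mouse. Every mouse carried Ptf1aCreER, a Cre recombinase that tamoxifen switches on and that is driven by Ptf1a, which in the adult pancreas is active in the enzyme-secreting acinar cells, and nTnG, a nuclear fluorescent reporter of Cre activity. The groups differed at the insulin receptor gene Insr. The 3 libraries labelled Insr WT were Insrw/w, with 0 floxed alleles, the 3 labelled Insr Het were Insrw/f, with 1, and the 4 labelled Insr KO were Insrf/f, with 2. Cre acts where Ptf1a is active, so the alleles of T cells are not its target. Tamoxifen dosing and diet are not given in the sources used here. Libraries are named by group and mouse number, as in WT-2404, and WT, Het and KO stand for the labels.

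T cells recognise peptides through a T cell receptor whose signal leaves the cell surface through the CD3 chains. The kinase LCK, held at the co-receptors CD4 and CD8, phosphorylates the CD3 tails, and the kinase ZAP-70 docks there and passes the signal on. T cells are few in a healthy pancreas and enter it in pancreatitis, in early neoplasia and around islets in autoimmune diabetes. Some of the 9 genes are also used outside T cells: CD4 on some macrophages and dendritic cells, CD8 alpha on a dendritic cell subset, CD2 and ZAP-70 in natural killer cells, and CD5 on a subset of B cells.

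The 9 genes lie at 7 places in the mm10 genome (GENCODE M21 gene spans). The CD3 genes form a cluster on chromosome 9, with Cd3g at 44969572 to 44980431, Cd3d at 44981786 to 44987339 and Cd3e at 44998740 to 45009627. Cd3g and Cd3d point away from each other from start sites 1355 bases apart. Cd4 lies on chromosome 6 at 124864692 to 124888221 and Cd8a on the same chromosome at 71373427 to 71379173. Cd2 is on chromosome 3 (101275899 to 101287939), Cd5 on chromosome 19 (10717116 to 10739002), Lck on chromosome 4 (129548344 to 129573641) and Zap70 on chromosome 1 (36761798 to 36782818). Cd3e overlaps an antisense transcript and 1 further unnamed model, Zap70 a pseudogene on the opposite strand, and Lck a microRNA gene. The strand setting of the counting is not given in the sources used here, so reads of Cd3e and Zap70 cannot be separated from partners on the opposite strand. The unnamed model and the microRNA gene lie on the same strand as Cd3e and Lck, where a strand setting would not separate reads.

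The promoters of the CD3 cluster are shown because these 3 genes encode parts of 1 complex and are neighbours. Each line gives the 250 bases before the RefSeq start site (GRCm38.p6, 5′ to 3′ on the gene's strand). They are chr9:45009612-45009861 on the minus strand for Cd3e, chr9:44981536-44981785 on the plus strand for Cd3d and chr9:44980432-44980681 on the minus strand for Cd3g. Capitals mark AGGAAG, a core of ETS factor sites, or AGATAA, a core of GATA factor sites, on either strand.
Cd3e: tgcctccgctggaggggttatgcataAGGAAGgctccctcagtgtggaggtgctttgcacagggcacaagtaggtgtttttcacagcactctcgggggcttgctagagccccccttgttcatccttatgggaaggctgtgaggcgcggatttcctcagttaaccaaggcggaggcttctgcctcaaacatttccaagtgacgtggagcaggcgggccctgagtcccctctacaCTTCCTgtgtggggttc
Cd3d: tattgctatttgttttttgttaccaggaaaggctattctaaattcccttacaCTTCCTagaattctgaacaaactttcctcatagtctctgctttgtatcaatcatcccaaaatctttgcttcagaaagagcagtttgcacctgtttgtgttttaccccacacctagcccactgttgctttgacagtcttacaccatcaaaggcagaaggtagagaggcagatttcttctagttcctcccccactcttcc
Cd3g: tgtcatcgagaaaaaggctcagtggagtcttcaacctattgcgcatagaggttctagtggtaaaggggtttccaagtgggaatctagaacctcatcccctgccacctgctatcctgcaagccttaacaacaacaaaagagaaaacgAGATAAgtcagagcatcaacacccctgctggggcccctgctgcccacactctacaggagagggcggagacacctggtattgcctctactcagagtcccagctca
AGGAAG was found in 2 places before Cd3e and 1 before Cd3d, and AGATAA in 1 place before Cd3g. Among the 7 of the 9 genes with an entry, AGGAAG was present before 5 (Cd3d, Cd3e, Cd5, Lck and Zap70). It was in 7 of their 10 windows, against 29.5% of the 32851 windows of this length over all genes. AGATAA was before 1 (Cd3g), in 1 of 10 windows, against 9.99% of all windows. TGTGGT, a core of RUNX factor sites, was before 2 (Lck and Zap70), in 2 of 10 windows, against 14.0%. TATAAA was in 0 of 10, against 12.4%. Lck and Zap70 have more than 1 start site and so more than 1 window each. These matches describe letters only, and Cd2 and Cd4 had no entry.

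Gene counts per library ranged from 11718559 to 19024351. The 9 T cell genes together took 23 (KO-2126) to 694 (WT-2404) of these counts, so each value below rests on few reads. A count of 0 allows up to 3 counts, which is 0.0501 to 0.395 CPM depending on the library. CPM is the usual count normalised to library size, here after TMM, edgeR's correction for composition. Floors and intervals here cover counting error only. The libraries differed in how much acinar RNA they held. Over a list of 19 acinar genes, the share of all gene counts was 13.0% in WT-2404 and 50.8% in WT-1860, and 55.0% to 68.3% in the other 8 libraries. TMM factors ran from 0.596 to 3.54, highest in WT-2404. Reads outside genes made up 8.71% of counts in KO-2124, 7.83% in WT-2404 and 7.0% in WT-1860, and 2.59% to 5.14% elsewhere. Insr itself, the targeted gene, was at 21.0, 27.8 and 40.5 CPM in WT-2404, WT-1860 and WT-2067, at 43.2, 44.2 and 28.2 CPM in Het-2066, Het-1770 and Het-2042, and at 22.7, 33.3, 35.5 and 34.7 CPM in KO-2079, KO-2070, KO-2124 and KO-2126. The log2 fold change of Insr was 0.09 in KO against WT (SE 0.26, edgeR adjusted p = 0.864), so its level over the whole piece did not separate the labels. Whether these counts include the exons that Cre removes is not given in the sources used here, and other cells of the piece keep Insr, so this check does not test the labels. Each library is 1 mouse, and p-values measure the spread between these mice. In a bulk piece, fewer T cells and less T cell RNA per cell cannot be told apart.

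Summed over the 9 genes, the level reached 11.6 CPM for WT-2404, 16.5 CPM for WT-1860 and 7.41 CPM for WT-2067. It was 3.69 CPM in Het-2066, 3.54 in Het-1770 and 5.10 in Het-2042. The KO libraries were at 6.99 CPM in KO-2079, 4.35 in KO-2070, 10.97 in KO-2124 and 2.32 in KO-2126. All 3 Het libraries lay below all 3 WT libraries, and KO-2124 lay inside the WT range. As means, WT libraries stood at 11.8 ± 4.53 CPM (SD, n = 3), Het libraries at 4.11 ± 0.859 CPM (SD, n = 3) and KO libraries at 6.16 ± 3.73 CPM (SD, n = 4).

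**Figure D1:**
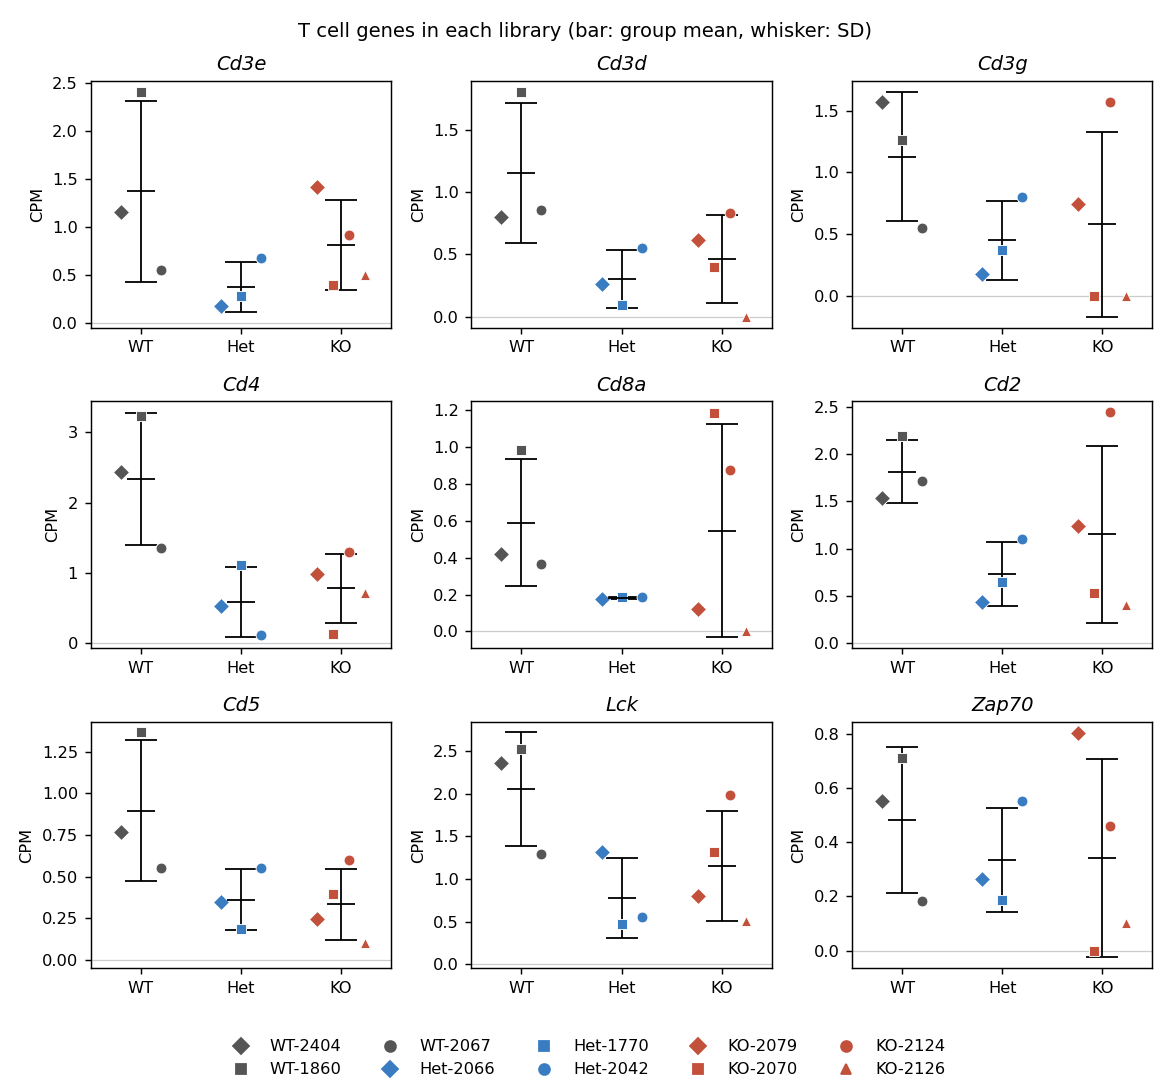
Level of each of the 9 T cell genes in each library (y axis: CPM after TMM scaling, with its own scale in each panel). Points are libraries, horizontal bars group means and whiskers SD. Cd4 is the gene for which all KO and all Het points lie below all WT points, and KO-2126 and KO-2070 include points at 0.

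The CD3 chains carry the receptor's signal into the cell. Cd3e, the epsilon chain present in every receptor complex, was at 1.15, 2.41 and 0.552 CPM in WT-2404, WT-1860 and WT-2067. It was at 0.175, 0.280 and 0.675 CPM in Het-2066, Het-1770 and Het-2042. It was at 1.42, 0.395, 0.922 and 0.505 CPM in KO-2079, KO-2070, KO-2124 and KO-2126. WT-1860 was the highest, and both the Het and the KO ranges overlapped the WT range. Cd3d, the delta chain, was at 0.802, 1.80 and 0.858 CPM in the WT libraries in the same order, at 0.263, 0.0932 and 0.553 CPM in the Het and at 0.618, 0.395, 0.830 and 0 CPM in the KO libraries. The 3 Het values of Cd3d were below the WT values, whereas KO-2124 reached the lower WT values. Cd3g, the gamma chain, was at 1.57, 1.26 and 0.552 CPM in WT, at 0.175, 0.373 and 0.798 CPM in Het and at 0.742, 0, 1.57 and 0 CPM in KO libraries. KO-2124 thus equalled the highest WT library for Cd3g, while KO-2070 and KO-2126 had 0 counts, which allow up to 0.395 and 0.303 CPM.

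The co-receptors mark the main T cell classes, CD4 on cells that see MHC class II and CD8 on cells that see MHC class I. Cd4 was at 2.44, 3.23 and 1.35 CPM in WT-2404, WT-1860 and WT-2067, at 0.526, 1.12 and 0.123 CPM in Het-2066, Het-1770 and Het-2042, and at 0.989, 0.132, 1.29 and 0.708 CPM in KO-2079, KO-2070, KO-2124 and KO-2126. Every Het and KO value lay below every WT value, with a narrow gap between KO-2124 and WT-2067. Cd8a was at 0.418, 0.985 and 0.368 CPM in WT, at 0.175, 0.186 and 0.184 CPM in Het and at 0.124, 1.19, 0.876 and 0 CPM in KO libraries. The Het values of Cd8a rest on 2 to 3 counts each, and the KO libraries held both the highest value of the series, in KO-2070, and a 0, in KO-2126.

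Cd4 took most of the reads of the 2 co-receptor genes in 8 of the 10 libraries. Its share of Cd4 and Cd8a counts was 85.4% for WT-2404 (Wilson 95% interval 79.3 to 89.9), 76.6% for WT-1860 (66.0 to 84.7) and 78.6% for WT-2067 (60.5 to 89.8). In the KO libraries it was 88.9% in KO-2079 (67.2 to 96.9), 59.6% in KO-2124 (45.3 to 72.4), 1 of 10 counts in KO-2070 (interval 1.79% to 40.4%) and 7 of 7 counts in KO-2126 (from 64.6% up). In the Het libraries it was 75.0%, 85.7% and 40.0%, from 5 to 14 counts. The interval of KO-2070 lay below those of all 3 WT libraries, but the KO libraries differed among themselves by more than the WT libraries did. Transcripts of different length give different numbers of reads, so this share is not a share of cells.

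CD2 is an adhesion receptor of T and natural killer cells and CD5 a brake on receptor signalling. Cd2 was at 1.54, 2.19 and 1.72 CPM in WT, at 0.439, 0.653 and 1.11 CPM in Het and at 1.24, 0.527, 2.44 and 0.404 CPM in KO libraries, in the order above. All Het values were below all WT values, and KO-2124 was the highest of the 10 libraries. Cd5 was at 0.769, 1.37 and 0.552 CPM in WT, at 0.351, 0.186 and 0.553 CPM in Het and at 0.247, 0.395, 0.599 and 0.101 CPM in KO libraries. The lowest WT library for Cd5, WT-2067, had 9 counts and lay at or below the highest Het and KO values.

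Of the kinases, Lck was at 2.36, 2.52 and 1.29 CPM in WT, at 1.32, 0.466 and 0.553 CPM in Het and at 0.804, 1.32, 1.98 and 0.505 CPM in KO libraries. Het-2066, KO-2070 and KO-2124 were above WT-2067. Zap70 was at 0.551, 0.711 and 0.184 CPM in WT, at 0.263, 0.186 and 0.553 CPM in Het and at 0.804, 0, 0.461 and 0.101 CPM in KO libraries. Its highest value was in KO-2079 and the 3 groups overlapped.

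Levels were compared between genes per kilobase of merged exons (GENCODE M21), since longer transcripts gather more reads. In the WT libraries the mean was 1.04 ± 0.193 CPM per kilobase for Cd2 (SD, n = 3), followed by Lck at 0.701 ± 0.228, Cd3d at 0.636 ± 0.311 and Cd4 at 0.580 ± 0.234. Cd3g was at 0.345 ± 0.160 and Cd3e at 0.336 ± 0.232. Cd5 at 0.182 ± 0.0857, Cd8a at 0.162 ± 0.0942 and Zap70 at 0.161 ± 0.0904 were lowest. Neighbours in this order differed by less than the larger of their SDs, apart from Cd2 and Lck and, barely, Cd4 and Cd3g.

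KO libraries were compared with WT libraries to ask what 2 floxed Insr alleles change. All 9 T cell genes had fitted values below 0, from -1.49 for Cd4 to -0.12 for Cd8a, though 6 of them were above 0 when scaled to pan-leukocyte counts, which put the median of all genes at 1.36, and none passed the test. The median was -0.80 on the log2 scale, beside 0.03 over all 13688 genes tested, of which 48.1% had values below 0. Cd4 differed most, at a log2 fold change of -1.49 (SE 0.64), which is a level 2.81 times lower, with an edgeR adjusted p of 0.189. Cd5 was at -1.33 (SE 0.63) and Cd3d at -1.19 (SE 0.74), with edgeR adjusted p values of 0.225 and 0.335. The remaining 6 had values from -0.81 (Lck, SE 0.52) to -0.12 (Cd8a, SE 0.86), with edgeR adjusted p values of 0.350 to 0.945.

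In edgeR's quasi-likelihood test, 0 of the 9 genes passed an adjusted p of 0.05, and 0 of 13688 genes did (0%). At an unadjusted p under 0.05 there was 1 of the 9, Cd4, where 23.5% of all genes tested were under it, 13.9% with lower levels. DESeq2 called 0 of the 8 genes to which it gave an adjusted p, against 7.41% of all genes, with 1 of 9 at an unadjusted p under 0.05, against 19.4% of all genes. Ranges did not overlap for 1 of the 9 genes, Cd4, against 9.15% of all genes in that direction. The counts of 1 in 9 do not exceed the shares of all genes at an unadjusted p, and the SE was larger than the value for Cd3g, Cd8a and Zap70. Cd4 was no longer at an unadjusted p under 0.05 without WT-2404, WT-1860, KO-2079, KO-2070 or KO-2126, or with the acinar share as a covariate. Fewer genes of the whole table were at that p in these settings too, against 3222 of 13688 with all libraries. Without these libraries, in that order, there were 1297, 2490, 3010, 2258 and 2272 genes, of 13619 to 13889 tested. With the covariate there were 976 of 13688. With library size alone as the scaling, where the median of all genes was -1.17 and 20.8% of them passed, Cd4 was the 1 of 9 that passed (-2.63, edgeR adjusted p = 0.0388). Single libraries moved the sizes, and the median was -1.26 without KO-2124 and -0.52 without KO-2126. Cd8a was at 0.42 without WT-1860, 0.24 without KO-2079 and 0.26 without KO-2126. Cd3e was at -0.06 without WT-1860, and Cd3g at -1.88 without KO-2124.

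Het libraries were compared with WT libraries to ask what 1 floxed allele changes. All 9 genes had fitted values below 0, from -2.04 for Cd4 to -0.49 for Zap70, though Cd3g and Zap70 were above 0 when scaled to pan-leukocyte counts, which put the median of all genes at 1.19. The median was -1.41, beside 0.0046 over all genes, of which 49.7% had values below 0. None passed the test. Cd4 was at -2.04 (SE 0.74), 4.12 times lower, with an edgeR adjusted p of 0.192. Cd3d was at -1.82 (SE 0.85), Cd3e at -1.78 (SE 0.73), Cd8a at -1.64 (SE 1.05) and Lck at -1.41 (SE 0.59), with edgeR adjusted p values of 0.258, 0.215, 0.374 and 0.219. Cd3g, Cd2 and Cd5 were at -1.29, -1.27 and -1.24, and Zap70 at -0.49, with edgeR adjusted p values of 0.277 to 0.774.

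By edgeR 0 of the 9 genes were called, as were 0 of all genes (0%). At an unadjusted p under 0.05 there were 3 of the 9, Cd4, Cd3e and Lck, against 19.8% of all genes, 11.6% with lower levels. DESeq2 gave an adjusted p to 4 of the 9 and called 0, against 3.10% of all genes, and had 4 of 9 at an unadjusted p under 0.05, against 17% of all genes. Ranges did not overlap for 4 genes (Cd3d, Cd4, Cd8a and Cd2), against 13.5% of all genes in that direction. With library size alone, where the median of all genes was -1.36 and 22.9% of them passed, Cd3e, Cd3d, Cd4 and Lck passed (4 of 9, edgeR adjusted p = 0.0381 to 0.0499). Both comparisons use the same 3 WT libraries, so a WT library that is high enters both. Without WT-1860 the median was -1.15, with 0 of 9 genes at an unadjusted p under 0.05, and without WT-2404 it was -1.35, with 2. Without Het-1770 there was 1 such gene, without KO-2126 there were 5, and with the acinar share as a covariate 1. The count over all genes moved too, from 2715 of 13688 with all libraries. It was 2055 of 13889 without WT-1860, 1083 of 13768 without WT-2404 and 1849 of 14177 without Het-1770. It was 2812 of 13712 without KO-2126 and 694 of 13688 with the covariate.

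KO libraries were compared with Het libraries to ask whether the other floxed allele adds to the first. The 9 genes were not distinguishable between these groups. Values ran from -0.09 (Cd5, SE 0.71) to 1.52 (Cd8a, SE 1.04), 8 of them above 0, with a median of 0.60 beside 0.0079 over all genes. Of all genes tested, 48.5% had values below 0. Cd3e was at 1.09 (SE 0.71), and every edgeR adjusted p of the 9 genes was 1.0. By edgeR 0 of 9 were called and 0 of all genes (0%). At an unadjusted p under 0.05 there were 0 of 9, against 0.752% of all genes (0.351% with lower levels). DESeq2 called 0 of 9 (0% of all genes), with 0 at an unadjusted p under 0.05 against 0.871% of all genes. Ranges did not overlap for 0 of 9 in either direction, against 1.16% of all genes with every KO library lower. The share with every KO library higher, the direction of most of the 9 genes, is not given here. Single libraries moved these values both ways: the median was 0.14 without KO-2124, with Cd3g at -0.60, 0.37 without Het-1770 and 1.15 without Het-2042.

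**Figure D2:**
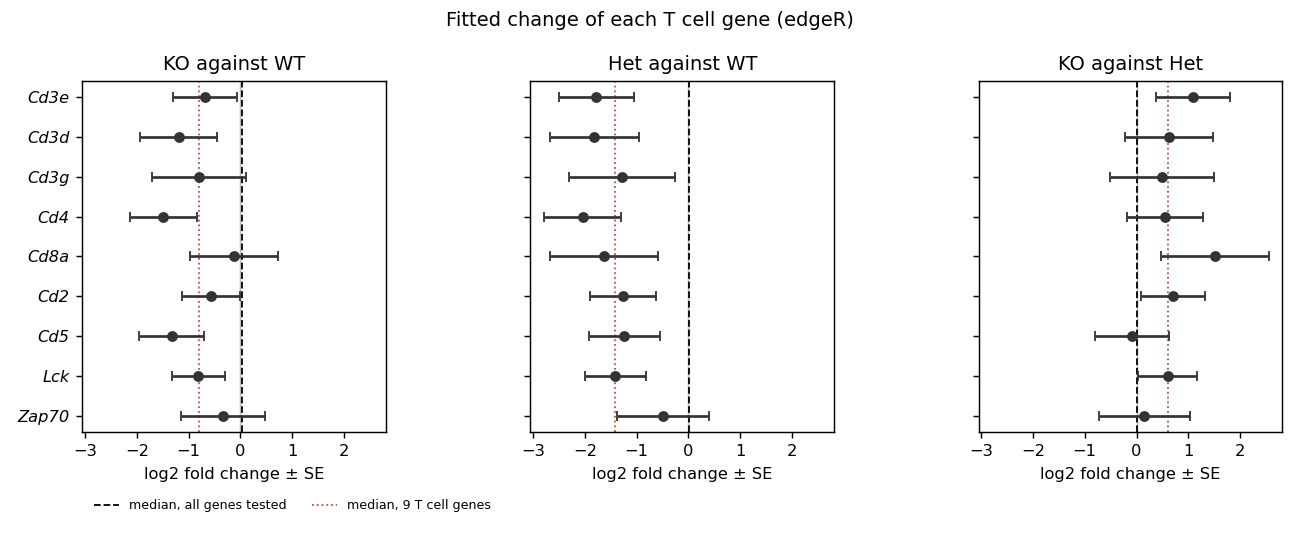
Fitted log2 fold change of each of the 9 T cell genes with its SE (x axis) in the 3 comparisons. The dotted line is the median of the 9 genes, at -0.80, -1.41 and 0.60, and the dashed line the median of all genes tested, near 0 in each.

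Other genes of T cells were read from 6 lists, and none of their genes passed edgeR's adjusted threshold in any comparison (0 genes). At edgeR's unadjusted p under 0.05, KO libraries against WT had 1 of 2 genes tested of the receptor complex, 7 of 19 of signalling, 1 of 10 of the checkpoints, 4 of 14 transcription factors (1 of them higher), 3 of 14 homing receptors and 0 of 6 cytotoxic genes. Over all genes tested that share was 23.5%. For the rest of the receptor complex, 2 of 11 listed genes were tested. Another 7, among them the receptor's constant regions, were not found in the count table under the listed symbols. Cd247, the zeta chain that carries most of the complex's signalling motifs, was at 1.04, 1.04 and 0.858 CPM in the WT libraries, at 0.439, 1.12 and 0.553 CPM in Het and at 0.433, 0, 0.553 and 0.101 CPM in KO libraries. All KO values of Cd247 lay below all WT values, with a log2 fold change of -1.61 (SE 0.68, edgeR adjusted p = 0.185). Cd247 was named for its small p, its KO values rest on 0 to 12 counts, and 9.15% of all genes tested had every KO library lower. Cd8b1, the other CD8 chain, was at -0.04 (SE 0.86, edgeR adjusted p = 0.981).

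Of 24 signalling genes downstream of the receptor, 19 were tested. In KO against WT 16 of them had lower levels, with a median of -0.60. The smallest p belonged to Csk, the kinase that restrains LCK and is used in most cell types, at -0.76 (SE 0.19, edgeR adjusted p = 0.116, DESeq2 adjusted p = 0.0179), and to Vav1, a leukocyte exchange factor, at -1.34 (SE 0.40, edgeR adjusted p = 0.120, DESeq2 adjusted p = 0.0365). Csk was at 21.8 to 33.9 CPM in WT, 14.9 to 17.9 in Het and 13.6 to 19.1 in KO libraries, and no KO or Het value reached a WT value. Csk was named for its small p. Every KO library was lower than WT for 9.15% of all genes tested, and every Het library for 13.5%. DESeq2 called Csk and Vav1, 2 of the 19 signalling genes, in KO against WT, beside 7.41% of all genes.

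Of 19 co-receptors and checkpoints, 10 were tested, 8 of them with lower levels in KO libraries and a median of -0.46. Btla, an inhibitory receptor of B and T cells, was at 2.27, 7.44 and 3.00 CPM in WT, at 0.790, 0.746 and 0.675 CPM in Het and at 0.989, 0.791, 2.26 and 0.303 CPM in KO libraries. Btla was at -1.86 on the log2 scale in KO against WT (SE 0.56, edgeR adjusted p = 0.121, DESeq2 adjusted p = 0.0304) and -2.51 in Het against WT (SE 0.65, edgeR adjusted p = 0.184, DESeq2 adjusted p = 0.0205). Havcr2, which macrophages and dendritic cells also use, was at -0.84 in KO against WT (SE 0.46, edgeR adjusted p = 0.279).

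Of 16 transcription factors, 14 were tested and 11 had lower levels in KO libraries, with a median of -0.71. Satb1, a chromatin organiser of thymocytes, was at -1.20 (SE 0.39, edgeR adjusted p = 0.126) and Ikzf1, a lymphoid factor, at -1.40 (SE 0.47, edgeR adjusted p = 0.129). Of 17 homing and cytokine receptors, 14 were tested and 13 had lower levels, with a median of -1.001. Of 14 cytotoxic and natural killer genes only 6 had enough counts to be tested, and 5 of these had lower levels, with a median of -0.19. Klrd1, a natural killer receptor chain, was at -1.41 (SE 0.72, edgeR adjusted p = 0.250), and Klrb1c, which marks natural killer cells in some strains, at 0.55 (SE 0.92, edgeR adjusted p = 0.741). In Het against WT the medians were -0.26, -0.85, -0.66, -0.97, -1.04 and -1.01 for the 6 lists in this order.

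Markers of other leukocytes also had lower levels in most KO and Het libraries. Ptprc, carried by all leukocytes, was at 22.4 to 40.2 CPM in WT, 11.4 to 13.5 in Het and 5.05 to 23.7 in KO libraries. Ptprc was at -1.27 on the log2 scale in KO against WT (SE 0.40, edgeR adjusted p = 0.125, DESeq2 adjusted p = 0.0390). Of the 12 pan-leukocyte genes, Ptprc among them, 11 had lower levels in KO libraries, with a median of -1.43, and DESeq2 called 9, beside 7.41% of all genes. Their sum was 219 to 515 CPM in WT, 113 to 160 in Het and 86.8 to 201 in KO libraries. Summed over 12 B cell genes the level was 66.6 to 103 CPM in WT, 18.4 to 32.1 in Het and 10.01 to 65.5 in KO libraries. All 12 had lower levels in KO libraries, with a median of -1.40. Cd79a, part of the B cell receptor, had 71 to 248 counts in WT and 6 to 103 in KO libraries. Over 13 macrophage genes the sums were 486 to 1959 CPM in WT, 261 to 395 in Het and 151 to 554 in KO libraries, and 13 of 13 had lower levels in KO libraries, with a median of -1.71. DESeq2 called 12 of these 13 in KO against WT, and edgeR 0. Over 11 dendritic cell genes tested of 12, 10 had lower levels in KO libraries, with a median of -0.97, and the list's sums were 31.4 to 56.6 CPM in WT, 14.3 to 29.5 in Het and 9.91 to 33.6 in KO libraries.

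The defining marker of natural killer cells, Ncr1, had 0 to 19 counts in a library, and Siglech, of plasmacytoid dendritic cells, 0 to 19. Of 10 genes of lymph node stroma and high endothelium, Ccl21a and Glycam1 were listed at 0 in all 10 libraries. Cxcl13, a chemokine of lymphoid follicles, had 14 to 406 counts in WT, 1 to 37 in Het and 1 to 100 in KO libraries. In CPM, Cxcl13 was at 0.766 to 6.78 in WT, 0.0877 to 2.27 in Het and 0.101 to 4.61 in KO libraries, which overlapped. That list's sums were 2204 to 5178 CPM in WT, 759 to 1725 in Het and 854 to 1650 in KO libraries. The sums of WT and of the other groups did not overlap, but they rest on list genes other than these 3. They are thus no measure of lymph node tissue. Of all single genes tested, 9.15% had every KO library below every WT library, and 13.5% every Het library. Of its 8 genes tested, 6 had lower levels in KO libraries, with a median of -0.79. Over the 19 acinar genes, all had higher fitted levels in KO libraries, with a median of 1.14, and edgeR and DESeq2 called 0. At edgeR's unadjusted p under 0.05 there was 1 of 19. The sums of that list overlapped, at 36825 to 713308 CPM in WT and 404926 to 1.15e+06 CPM in KO libraries. The part of these other cell types in the values of the T cell genes was not tested. With the acinar share as a covariate, the median of the 9 T cell genes was -0.56 for KO and -1.27 for Het libraries against WT.

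**Figure D3:**
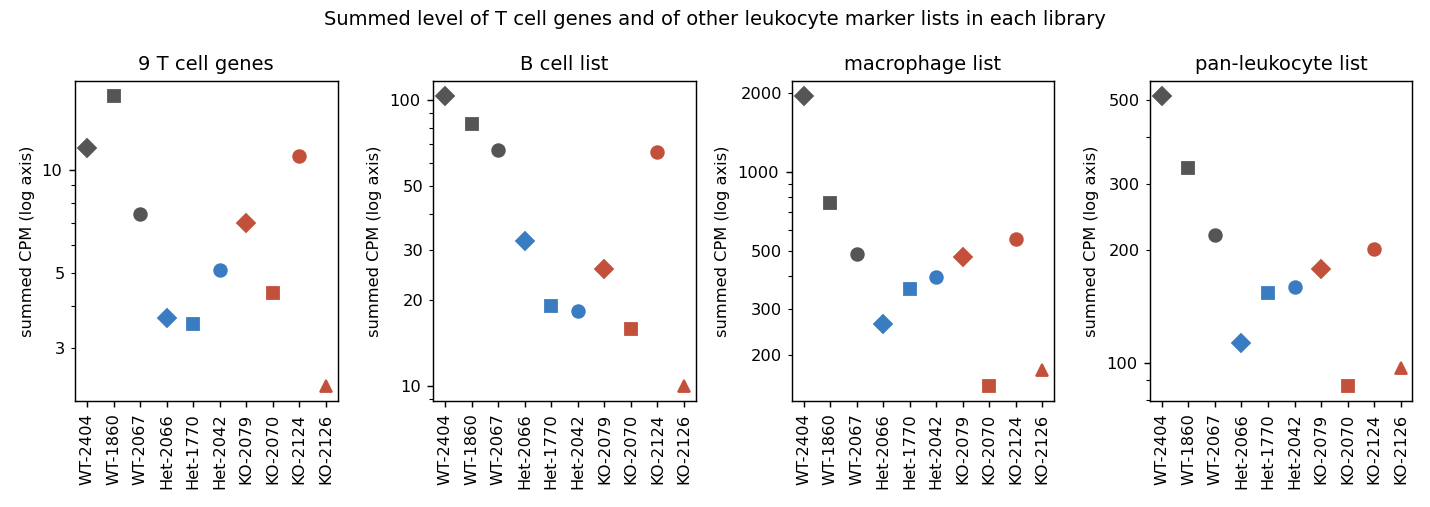
Summed level (y axis: CPM, log axis, its own scale in each panel) of the 9 T cell genes and of the B cell, macrophage and pan-leukocyte lists in each library. WT-1860 is highest for the T cell genes and WT-2404 for the other lists, KO-2124 is the highest KO library in each panel, and the Het libraries lie below all WT libraries in each.

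The T cell genes were also set against leukocyte counts of the same library, which needs no scaling between libraries. Per 100 counts of Ptprc the 9 genes had 28.9, 43.2 and 33.2 counts in the WT libraries (WT-2404, WT-1860, WT-2067), and 31.1, 31.1 and 37.7 counts in the Het libraries. They had 43.0, 44.6, 46.3 and 46.0 counts in KO-2079, KO-2070, KO-2124 and KO-2126. The KO libraries were close together in this ratio, all above the Het libraries and level with or above WT-1860, the highest WT library. Counting error is wide, from 28.2 to 75.0 in KO-2126 (95% interval from the Wilson limits of the share). The mean ratio was 35.1 ± 7.38 for WT (SD, n = 3), 33.3 ± 3.81 for Het (SD, n = 3) and 45.0 ± 1.53 for KO libraries (SD, n = 4). The 3 CD3 genes alone did not show this separation, with 8.77 to 14.4 counts per 100 of Ptprc in WT, 5.19 to 15.0 in Het and 8.11 to 17.1 in KO libraries.

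The choice of leukocyte count changed the picture. Per 100 counts of the 12 pan-leukocyte genes, the 9 T cell genes had 2.25 to 4.98 counts in WT, 2.31 to 3.26 in Het and 2.39 to 5.46 in KO libraries, and these ranges overlapped. Per 100 counts of the macrophage list they had 0.592 to 2.16 in WT, 0.998 to 1.41 in Het and 1.34 to 2.87 in KO libraries. Per 100 counts of the B cell list they had 11.1 to 20.1 in WT, 11.5 to 27.8 in Het and 16.8 to 27.5 in KO libraries. In an edgeR fit with pan-leukocyte counts as library sizes, an alternative chosen after seeing the data, the median of the 9 genes was 0.44 in KO against WT, beside 1.36 over all genes. 6 of the 9 genes then had values above 0 and 0 passed, and 0 were at an unadjusted p under 0.05. Of all 13688 genes, 8564 passed under this scaling (8529 higher), and 9476 were at an unadjusted p under 0.05. The median of the 9 genes lay below that of all genes under this scaling as under TMM, while its sign against 0 moved with all genes. A change of scaling shifts all genes of a library by the same factor, so this order of the medians is no further test. In Het against WT the median of the 9 genes was -0.15, beside 1.19 over all genes, with 0 of 9 called and 1 of 13688 genes.

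**Figure D4:**
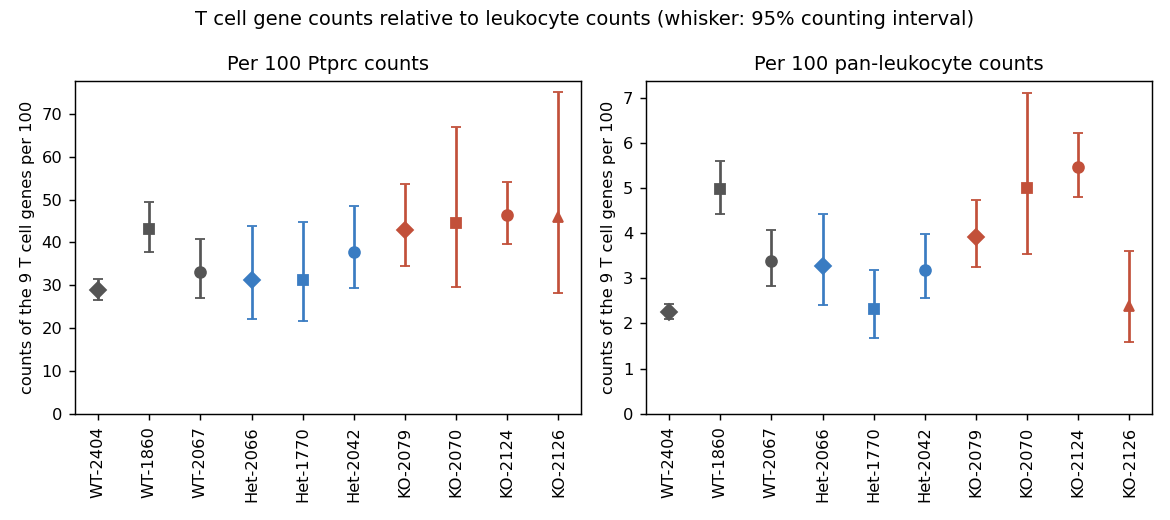
Counts of the 9 T cell genes per 100 counts of Ptprc (left) and per 100 counts of the 12 pan-leukocyte genes (right) in each library, with 95% counting intervals as whiskers. On the left the 4 KO libraries lie at 43.0 to 46.3, and on the right they spread from 2.39 to 5.46.

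The 9 genes varied together across the 10 libraries to different degrees, as a description over libraries that share depth and composition. Over the 36 pairs, Pearson's r of log2 CPM ran from -0.02 (Cd8a with Zap70) to 0.91 (Cd3d with Cd5), with a median of 0.60, and 0.57 without WT-2404. Cd3g with Cd2 was at 0.89, and Cd4 with Cd8a at 0.15. Among the genes outside the 9 whose level was most like the mean of the 3 CD3 genes were Tnfrsf26 (r = 0.97), Col10a1, Mmp12, Kcne3, Spib, Hs3st1 and Myo1g (0.96 each), over 10 libraries. Spib encodes a factor of B cells and plasmacytoid dendritic cells, Mmp12 a macrophage elastase and Myo1g a myosin of blood cells. No role is given here for Tnfrsf26, Col10a1, Kcne3 and Hs3st1, so the order is not read as a list of leukocyte genes. Tnfrsf26 had 1 to 62 counts, and Col10a1 had 1, 1, 2 and 0 in Het-2066, Het-1770, KO-2070 and KO-2126. Their places in this order thus rest on few reads, and 1 in 100 of all tested genes had an r above 0.899.

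**Figure D5:**
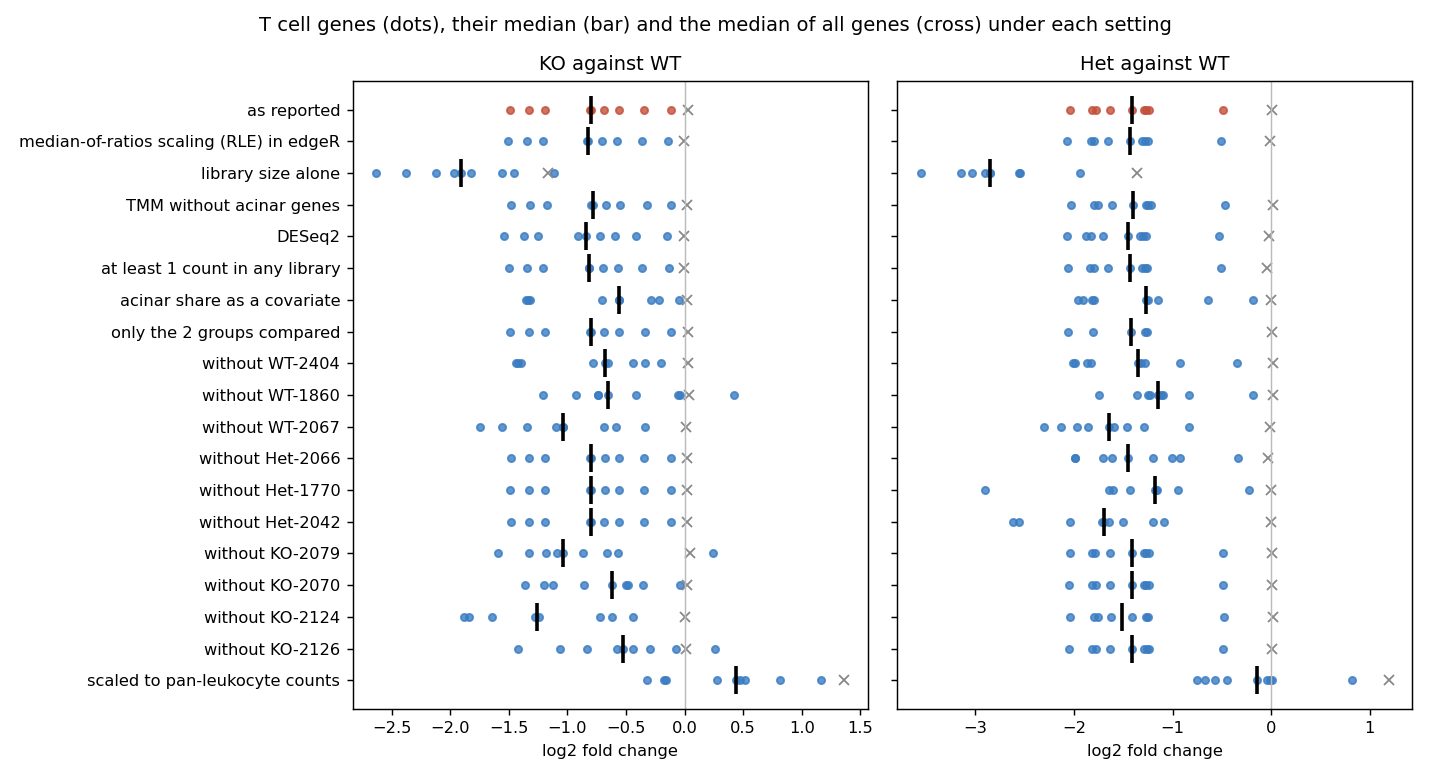
Log2 fold changes (x axis) of the 9 T cell genes (dots), their median (bar) and the median of all genes (cross) under each processing setting and with each library left out. The median of the 9 genes stays left of the cross in every row of both panels, and it lies right of 0 in KO against WT when libraries are scaled to pan-leukocyte counts (0.44). Rows that differ only in scaling shift dots, bar and cross together, so they do not test this order.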

How the data were processed

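The authors deposited 1 table of raw counts per gene symbol with 1 column per mouse. Per the submitters' processing notes, the build was mm10 and DRAGEN, STAR and Cufflinks were used. The counting tool and annotation are not given in the sources used here. Per the labels' protocols, tissue was frozen and pulverised before RNA isolation (RNeasy Micro), and total RNA was the input. The labels count 4 WT mice, of which 3 were analysed here. A further allele shared by all groups, and some genes that the rule below would name, are not reported here. Columns were matched by genotype and mouse number (0 left over). The 2 rows that name no gene, unassigned reads (2.59% to 8.71% of counts) and ambiguous reads (0.101% to 0.584%), were left out.

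Genes were tested with edgeR 4.0.16 (R 4.3.3; filterByExpr with a minimum count of 10, TMM, robust quasi-likelihood, two-sided) in 1 fit over 10 libraries, with Benjamini-Hochberg adjustment over 13688 genes at 0.05. SEs were derived from each F statistic. All 9 T cell genes passed the filter. CPM were computed after TMM scaling (prior count 2 on the log2 scale). The fit was tested on simulated data. DESeq2 1.42.0, other scalings, filters and left-out libraries were alternatives. Beside these 9, genes were named as the 2 smallest p-values of each list in KO against WT, the 8 most correlated with the CD3 mean, and defining markers. The members and lists were chosen with earlier results of these data known. The labels name 1 mouse per library and no batch, litter or date, so no batch could be examined. Promoters are from RefSeq (GRCm38.p6).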

Additional observations from a re-analysis of the deposited data

How the results depend on the processing

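No paired analysis was possible because the groups share no mouse number. With library size alone, where the median of all genes was -1.17 for KO and -1.36 for Het libraries against WT, edgeR called 2841 and 3140 genes, all lower, among them 1 T cell gene (Cd4, adjusted p = 0.0388) and 4 (Cd3e, Cd3d, Cd4 and Lck). The T cell medians were then -1.91 and -2.86, and Cd5 in KO against Het was at 0.18. DESeq2 called 1011 and 391 genes, 292 and 148 of them higher, and 0 T cell genes. Leaving out single libraries gave 0 to 1932 genes in KO against WT and 0 to 1160 in Het against WT, in both cases highest without WT-2067, and 0 T cell genes each time.

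Scaling to pan-leukocyte counts, chosen after seeing the data, gave 8564 genes in KO against WT (8529 higher) and 1 in Het against WT, with T cell medians of 0.44 and -0.15. In KO against WT, Cd3e was then at 0.51, Cd3g at 0.28, Cd8a at 1.16, Cd2 at 0.44, Lck at 0.48 and Zap70 at 0.82. In Het against WT, Cd3g was at 0.0064 and Zap70 at 0.82, and in KO against Het Zap70 was at -0.0048. With single libraries left out, Cd8a ran from -0.62 to 0.42 in KO against WT. In KO against Het, Zap70 ran from -0.54 to 0.75, Cd5 from -0.38 to 0.37 and Cd3g from -0.60 to 1.24. Of 63 other planned values of single T cell genes in KO against WT, 62 kept their direction and side of the threshold, as did 55 of 59 in Het against WT and 57 of 58 in KO against Het. Fits of only the Het libraries with WT or KO tested fewer T cell genes, and without KO-2124 Cd5 was not tested. The cause of these shifts was not tested beyond the scalings' own construction. Depth limits every T cell value, since Het libraries had 38 to 83 counts over the 9 genes.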
